A study of Mus musculus with 36 samples.

Results

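The genes described here encode the pore-forming and auxiliary subunits of voltage-gated calcium and sodium channels, of HCN channels and of potassium channels of every class, in mouse embryonic stem cells (ESC) and in neural stem cells (NSC) derived from them. The members are the genes whose symbols carry one of a set of stems (the Kcn, Cacna1, Cacna2d, Cacnb, Cacng, Scn and Hcn stems, without the long non-coding RNA Kcnq1ot1), a rule that uses no measured value. They were 110 of the 19426 genes listed in either expression table, 80 of 17036 in the ESC table and 102 of 17771 in the NSC table, with 72 in both, 8 in the ESC table only and 30 in the NSC table only. Another 26 of the 136 RefSeq symbols that fit the stems were in neither table, in which the lowest total of a listed gene was 51 reads over the table's libraries.

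A voltage-gated channel is built around a pore-forming alpha subunit that opens when the membrane potential changes, and auxiliary subunits set how much channel reaches the membrane and how fast it opens. Potassium channels let potassium leave the cell and hold or restore the resting potential, sodium channels drive the upstroke of the action potential, and calcium channels couple depolarisation to calcium entry. Neural stem cells and radial glia do not fire action potentials, but they are known to carry potassium and calcium conductances that set their resting potential and take part in cell cycle control. The TET enzymes oxidise methylated cytosine at CpG sites, the first step of active DNA demethylation.

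RNA was sequenced from 2 independent Tet triple knockout lines (TKO; Tet1, Tet2 and Tet3 targeted) and 3 independent Tet wildtype lines (WT), each as ESC and as NSC, giving 10 libraries. All lines were male ESC of the V6.5 background, a mix of 129 and C57BL/6. The ESC were freed of feeder cells by preplating for 45 min and grown on gelatin in serum and LIF for 24 h. The NSC were differentiated in culture and taken on day 6 after 1 passage. Promoter-capture Hi-C, which lists contacts of promoter fragments, was made from 1 TKO and 1 WT NSC library. The NSC cultures are bulk populations, so fewer cells of a type and less RNA per cell cannot be told apart in any result below.

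Recovered library totals ran between 41007791 reads (TKO ESC replicate 1) and 49060991 reads (TKO NSC replicate 1). The targeted genes kept reads in the TKO lines: Tet1 and Tet3 fell in TKO in both cell types and Tet2 in ESC (adjusted p = 0.0051), whereas Tet2 in NSC was not called (log2 difference 0.14, adjusted p = 0.46). No label used here says which exons were removed, so these levels check the labels only in part. Within WT, all 8 ESC markers were lower and 8 of 9 NSC markers higher in NSC than in ESC. In TKO NSC relative to WT NSC, 8 of the 9 NSC markers fell, with sums of 188779 and 198393 in the TKO libraries and 380735 to 392435 in WT. Of the 8 ESC markers 4 were higher and 1 lower in TKO NSC. Of 12 glial progenitor markers tested 7 fell and none rose, with sums of 13954 and 15972 in the TKO libraries and 22989 to 25068 in WT. Of 17 muscle and mesenchyme markers 11 rose and 4 fell, with sums of 159076 and 132113 in TKO and 132819 to 174830 in WT. Of 20 neuron markers 6 rose and 5 fell, with sums of 27867 and 25504 in TKO and 21623 to 26568 in WT. In TKO NSC the muscle and glial sums rest mostly on Col3a1 and Gja1. With both tables scaled together these had 82611 and 70399 reads (Col3a1) and 9593 and 10833 (Gja1). Among these markers Myod1 alone had an NSC library at 0, in WT replicates 1 and 3. Genes of chromosome 11 and of chromosome 6 beyond 100 Mb were shifted upward in the TKO lines and genes of chromosome 8 downward in TKO ESC. In TKO ESC replicates 1 and 2 the median gene of chromosome 11 stood 0.26 and 0.53 (log2) above the WT mean. That of chromosome 6 beyond 100 Mb stood 0.55 and 0.49 above it. The NSC medians and those of chromosome 8 are given below. For members in these regions that were called between TKO and WT, values with each chromosome centred on its median are given too. Other than by this centring, the part that these shifts have in the results below was not tested.

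In NSC the channel genes moved in both directions. Of 101 members tested, 18 were higher in TKO and 26 lower, or 43.6%, against 18.2% higher and 19.5% lower (37.7% together) of all 17744 genes tested with limma at an adjusted p under 0.05. The share of members called was thus close to that of all genes. At least 2-fold differences were seen in 11 of the risen and 19 of the fallen members, or 10.9% and 18.8% of those tested, beside 5.86% and 6.99% of all genes. The median log2 difference of the members was 0.22, beside 0.0059 over all genes, so the middle of the group lay slightly above 0 although more members fell than rose. The TKO and WT libraries did not overlap for 57 members (56.4%), beside 59.9% of all genes, and the 44 called members are among them. The summed value of all members differed little, at 47774 and 49612 in the TKO libraries and 48979, 52109 and 52556 in WT. Adjusted p-values below are from limma with Benjamini-Hochberg adjustment over all genes tested. Values below are the deposited normalised read counts, and differences are in log2(value + 1). Counts were not divided by transcript length, so levels are compared between libraries and not between genes.

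**Figure D1:**
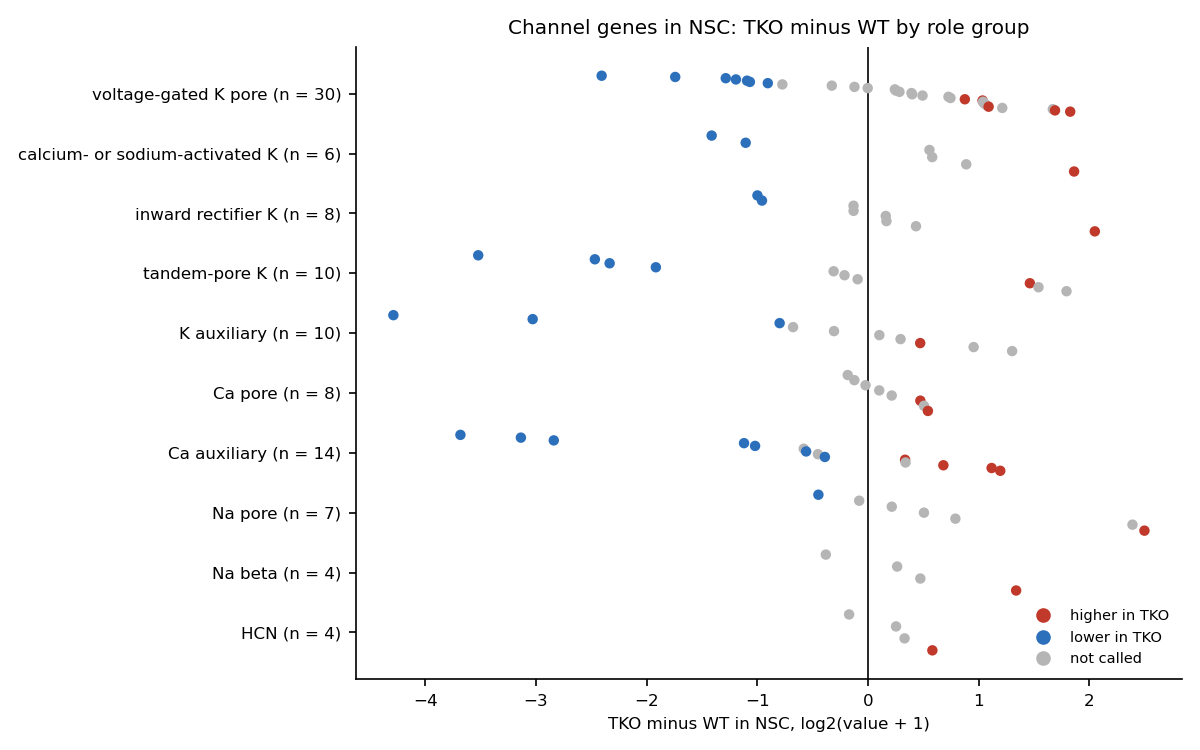
Difference between TKO and WT NSC (x axis, log2(value + 1)) for the 101 members tested, in rows by role group, with 1 point a gene. The red points are the 18 members higher in TKO, the blue points the 26 lower members and the grey points those not called; 4 tandem-pore genes stand apart on the left of their row.

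For 5 of the called members the 250 bases before a RefSeq start are shown because CpG sites are where the TET enzymes act. These bases had to lie outside the RefSeq span of the member itself and of every other gene. Kcnk12, Kcnh5 and Kcnn3 were the fallen members with the largest differences that met this condition, and Scn7a and Kcnj8 were the only risen ones. Sequences are from RefSeq on GRCm38.p6, 5′ to 3′ on the gene's strand, with each CpG in capitals. They lie at chr17:87797995-87798244 (minus strand), chr12:75177333-75177582 (minus), chr3:89519914-89520163 (plus), chr2:66784911-66785160 (minus) and chr6:142571615-142571864 (minus).
Kcnk12: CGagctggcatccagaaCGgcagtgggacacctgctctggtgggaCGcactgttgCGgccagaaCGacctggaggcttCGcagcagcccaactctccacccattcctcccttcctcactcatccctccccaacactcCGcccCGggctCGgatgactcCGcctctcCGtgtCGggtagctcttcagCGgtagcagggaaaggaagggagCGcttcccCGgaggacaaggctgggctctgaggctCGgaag
Kcnh5: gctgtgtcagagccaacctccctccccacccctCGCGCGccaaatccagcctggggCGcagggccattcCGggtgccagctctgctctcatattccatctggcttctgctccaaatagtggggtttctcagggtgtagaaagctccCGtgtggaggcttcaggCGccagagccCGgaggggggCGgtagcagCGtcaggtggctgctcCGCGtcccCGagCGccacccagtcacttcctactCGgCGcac
Kcnn3: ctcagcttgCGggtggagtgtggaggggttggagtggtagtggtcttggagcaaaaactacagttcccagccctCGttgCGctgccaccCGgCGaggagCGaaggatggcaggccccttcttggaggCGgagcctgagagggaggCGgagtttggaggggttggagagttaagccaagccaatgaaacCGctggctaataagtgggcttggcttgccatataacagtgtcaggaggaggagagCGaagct
Scn7a: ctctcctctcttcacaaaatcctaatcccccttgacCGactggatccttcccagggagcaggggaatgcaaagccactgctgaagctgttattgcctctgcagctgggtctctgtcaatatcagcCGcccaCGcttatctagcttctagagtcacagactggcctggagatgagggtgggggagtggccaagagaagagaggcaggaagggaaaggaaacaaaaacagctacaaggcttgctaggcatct
Kcnj8: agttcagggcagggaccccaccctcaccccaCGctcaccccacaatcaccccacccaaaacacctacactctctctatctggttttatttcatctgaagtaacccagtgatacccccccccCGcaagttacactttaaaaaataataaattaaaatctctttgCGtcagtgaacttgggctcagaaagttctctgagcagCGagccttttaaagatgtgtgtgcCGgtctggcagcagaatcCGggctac
The windows of the fallen Kcnk12 and Kcnh5 held 16 CpG each and that of Kcnn3 10, whereas those of the risen Scn7a and Kcnj8 held 3 and 6. This order did not extend to the group. A window was at hand for 79 of the 110 members, taking the one with most CpG where a gene has several. The median count was 23 CpG for 11 risen members, 16 for 21 fallen members, 15 for 39 members not called and 16 for the 12367 genes tested that had a window. At least 10 CpG were found in 72.7% of the risen, 66.7% of the fallen and 66.7% of the uncalled members, and in 74.3% of all genes. CpG was counted on the strand shown, which for this motif equals the other strand, and the counts say nothing of methylation, which was not analysed here.

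Tandem-pore potassium channels (Kcnk) carry the background leak current that sets the resting potential, and of 10 tested 4 fell and 1 rose in TKO. The 4 fallen genes were Kcnk13, Kcnk12, Kcnk10 and Kcnk2. Kcnk13, a halothane-inhibited leak channel known from microglia, had 14.7 and 31.2 normalised read counts in TKO NSC, against 213, 301 and 265 in WT NSC (log2 difference -3.52, SE 0.37, adjusted p = 2.4e-05). Its partner in that subfamily, Kcnk12, had 41.3 and 75.1 in TKO and 275, 314 and 355 in WT (-2.47, SE 0.30, adjusted p = 6.1e-05). The mechanosensitive and lipid-sensitive channels of the TREK subfamily fell as well. Kcnk10 had 51.4 and 64.4 in TKO and 274, 299 and 311 in WT (-2.33, SE 0.25, adjusted p = 2.6e-05). Kcnk2, the founding gene of that subfamily, had 509 and 371 in TKO and 1936, 1522 and 1501 in WT (-1.92, SE 0.16, adjusted p = 3.6e-06). In each of the 4 genes every TKO library lay below every WT library, and the calls held in all alternatives. Kcnk9, an acid-sensitive channel, went the other way with 75.3 and 107 in TKO and 26.9, 26.0 and 46.6 in WT (1.46, SE 0.45, adjusted p = 0.026). Its call was lost when TKO replicate 1 (adjusted p = 0.051), TKO replicate 2 (0.17), WT replicate 1 (0.073) or WT replicate 2 (0.061) was left out. Kcnk1 and Kcnk5 were not called (-0.21 and -0.09). The RefSeq span of Kcnk2 overlaps those of A430027H14Rik and Pdcd5-ps, and the strand setting of the counting is not given.

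**Figure D2:**
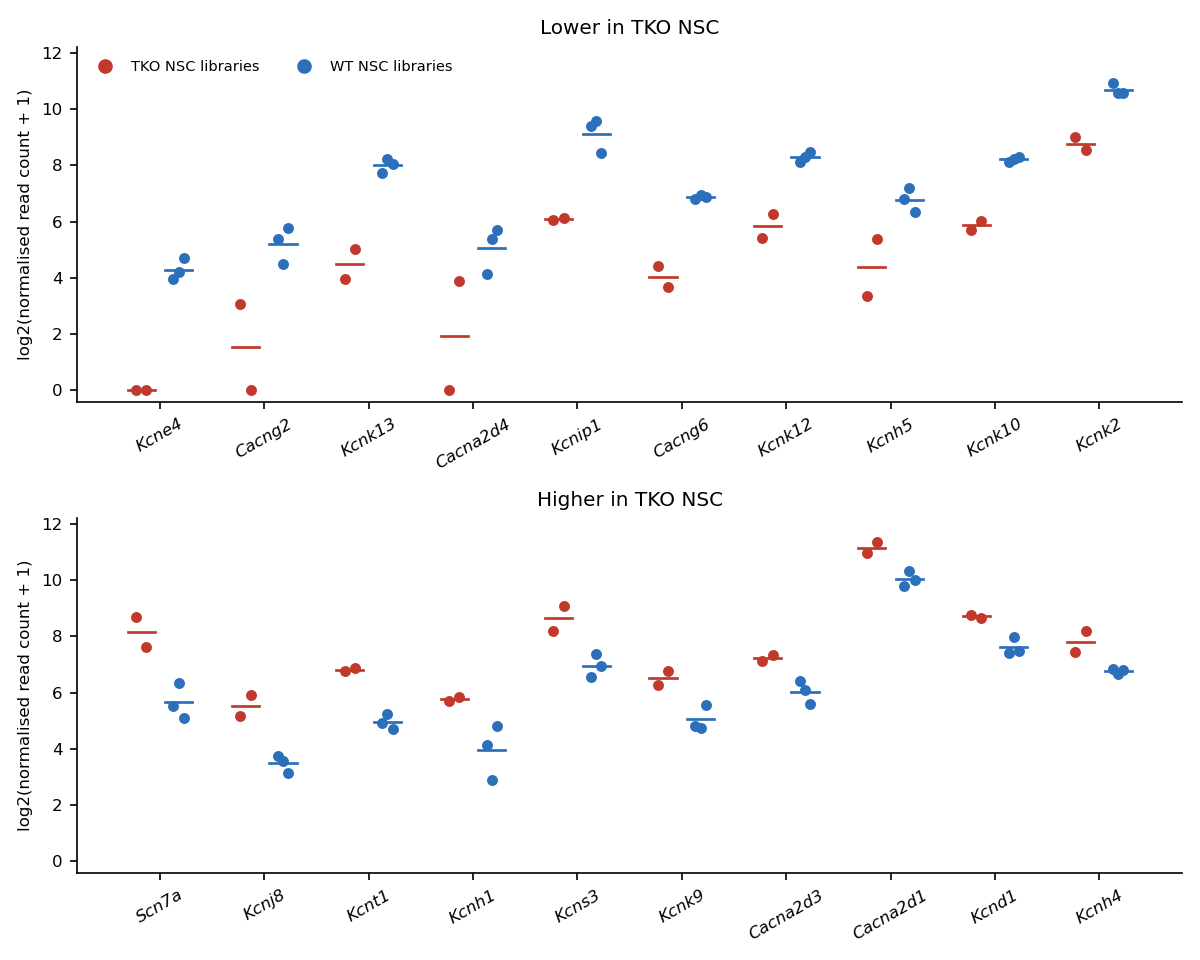
Normalised read counts on a log2(value + 1) axis in each TKO (red, left) and WT (blue, right) NSC library for the 10 fallen (top) and 10 risen (bottom) members with the largest differences among those named; bars are means of the log2 values. No TKO point overlaps the WT range of its gene, and Kcne4 is at 0 in both TKO libraries.

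Among the 30 voltage-gated potassium pore genes tested, 7 fell and 5 rose. Those that fell include Kcnh5, Kcng1, Kcnd3, Kcnc1, Kcna5 and Kcnh2. Kcnh5, an ether-a-go-go channel, had 9.18 and 41.0 in TKO, against 111, 145 and 79.6 in WT (-2.41, SE 0.58, adjusted p = 0.0067). The Kcnh5 call was kept in every alternative run, but its size moved with single libraries, to -1.38 without TKO replicate 1 and -3.43 without TKO replicate 2. Kcnd3, a pore of the fast inactivating A-type current, had 233 and 353 in TKO and 692, 622 and 797 in WT (-1.28, SE 0.19, adjusted p = 0.00031). Kcnc1, a channel that allows fast repolarisation in neurons, had 249 and 207 in TKO and 514, 453 and 604 in WT (-1.19, SE 0.18, adjusted p = 0.00038). The ERG channel Kcnh2, whose current repolarises the heart, had 1047 and 1080.2 in TKO and 1955, 1993 and 2025 in WT (-0.90, SE 0.09, adjusted p = 1.2e-05). Kcng1, an electrically silent subunit that modifies other potassium channels, had 12.9 and 48.8 in TKO and 80.6, 102 and 79.6 in WT (-1.74, SE 0.54, adjusted p = 0.024). The Kcng1 call was lost without TKO replicate 1 (-0.82, adjusted p = 0.20) and without any WT replicate (adjusted p = 0.060 to 0.086).

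The risen members of this class were Kcnh1, Kcns3, Kcnd1, Kcnh4 and Kcna6. Kcns3, a silent subunit that also works only in mixed channels, had 292 and 544 in TKO, against 92.0, 165 and 122 in WT (1.69, SE 0.32, adjusted p = 0.0015). Kcnd1, an A-type pore like the fallen Kcnd3, had 432 and 402 in TKO and 168, 249 and 177 in WT (1.09, SE 0.22, adjusted p = 0.0024). The A-type genes thus moved in opposite directions, with Kcnd2 not called (0.49, adjusted p = 0.28). Kcnh1, an ether-a-go-go channel like the fallen Kcnh5 and known for ectopic expression in tumours, had 51.4 and 56.6 in TKO and 16.5, 6.50 and 27.2 in WT (1.83, SE 0.66, adjusted p = 0.049). Its call was kept without WT replicate 3 but lost without TKO replicate 1 (adjusted p = 0.14), TKO replicate 2 (0.17), WT replicate 1 (0.091) or WT replicate 2 (0.097), and with edgeR (0.061). Kcnh4 had 171 and 289 in TKO and 113, 99.6 and 112 in WT (1.04, SE 0.29, adjusted p = 0.015). It lies on chromosome 11, where the median gene stood 0.53 and 0.54 above the WT mean in the TKO NSC libraries, and with each chromosome centred on its median the difference was 0.50 (adjusted p = 0.24). Without TKO replicate 2 it was 0.66 (adjusted p = 0.18).

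The shaker-type genes Kcna5 and Kcna6 lie 172773 bases apart with Kcna1 between them on distal chromosome 6 and moved oppositely. Kcna5, a delayed rectifier known from the atria, had 208 and 156 in TKO, against 394, 301 and 481 in WT (-1.09, SE 0.24, adjusted p = 0.0036). Kcna6 had 418 and 337 in TKO and 187, 196 and 231 in WT (0.88, SE 0.21, adjusted p = 0.0060). Kcna1 had 50.5 and 69.3 in TKO and 39.3, 41.1 and 69.9 in WT and was not called. The median gene of distal chromosome 6 stood 0.52 and 0.54 above the WT mean in the TKO NSC libraries. After centring, the fall of Kcna5 was larger (-1.62, adjusted p = 0.00045) and the rise of Kcna6 was no longer called (0.35, adjusted p = 0.25). The Kcna6 call was also lost without TKO replicate 1 (0.72, adjusted p = 0.066).

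Potassium channel auxiliary subunits gave 3 fallen and 1 risen gene of 10. Kcnip1, a calcium-binding partner that brings Kcnd channels to the membrane, had 66.1 and 68.3 in TKO, against 663, 751 and 344 in WT (-3.03, SE 0.31, adjusted p = 1.6e-05). It fell against the upward shift of chromosome 11, and with that chromosome centred the difference was -3.57. Kcnmb1 lies within its RefSeq span and had 40.4 and 78.1 in TKO and 76.5, 121 and 79.6 in WT, not called. Kcne4, a small membrane subunit that dampens several voltage-gated channels, was at 0 in both TKO libraries and had 14.5, 17.3 and 25.3 in WT (adjusted p = 0.0067). This is at least 13.4-fold lower when the TKO group is set at a floor of 3 counts in all. At these low counts its mean over the NSC libraries, 11.4, passed the filter of a mean of 10 only through the WT libraries. Kcnab2, a cytosolic beta subunit of shaker channels, had 386 and 444 in TKO and 701, 694 and 767 in WT (-0.80, SE 0.14, adjusted p = 0.00083). Its relative Kcnab3, on chromosome 11, had 450.0 and 473 in TKO and 309, 343 and 346 in WT (0.47, SE 0.16, adjusted p = 0.038). Its difference was -0.065 with chromosomes centred, and the call was lost without each of the 5 libraries in turn (adjusted p = 0.057 to 0.15).

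Of the channels opened by intracellular calcium or sodium, 2 of 6 fell and 1 rose. Kcnn3, a small-conductance channel that follows calcium entry, had 232 and 281 in TKO, against 636, 718 and 693 in WT (-1.41, SE 0.16, adjusted p = 3.2e-05). Kcnma1, the large-conductance pore, had 90.0 and 179.5 in TKO and 314, 225 and 292 in WT (-1.10, SE 0.30, adjusted p = 0.014). Its call was lost without TKO replicate 1 (-0.61, adjusted p = 0.13), WT replicate 1 (0.070) or WT replicate 3 (0.052). Kcnt1, the sodium-activated pore, had 108 and 115 in TKO and 28.9, 36.8 and 25.3 in WT (1.86, SE 0.41, adjusted p = 0.0041). Kcnn1 and Kcnn2, the other small-conductance genes tested, were not called (0.56 and 0.89).

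Inward rectifiers let potassium in more easily than out. Of 8 tested, Kcnj4 and Kcnj12 fell and Kcnj8 rose. Kcnj4, a strong rectifier, had 169 and 142 in TKO, against 262, 341 and 308 in WT (-0.96, SE 0.22, adjusted p = 0.0047). Kcnj12, of the same subfamily, had 64.3 and 42.0 in TKO and 114, 117 and 86.4 in WT (-0.998, SE 0.36, adjusted p = 0.048). Without TKO replicate 2 (-0.70, adjusted p = 0.23) or any WT replicate (adjusted p = 0.061 to 0.13) the Kcnj12 call was lost, and edgeR gave 0.063. It lies on chromosome 11, and with that chromosome centred its fall was larger (-1.54, adjusted p = 0.0089). The other members of that subfamily tested, Kcnj2 (0.43, adjusted p = 0.29) and Kcnj14 (-0.13), were not called. Kcnj2 lies on chromosome 11 as well. Kcnj8, a pore of ATP-sensitive channels known from smooth muscle and pericytes, had 34.9 and 58.5 in TKO and 12.4, 10.8 and 7.77 in WT (2.05, SE 0.64, adjusted p = 0.026). It lies on distal chromosome 6. Centred on that region it was 1.52 (adjusted p = 0.10), and the call was lost without TKO replicate 1 (0.053), TKO replicate 2 (0.17) or WT replicate 3 (0.059). The 17 muscle and mesenchyme markers, of which 11 rose and 4 fell in the same libraries, had a median log2 difference of 0.74. Their sums overlapped between the groups, but in TKO these rest mostly on Col3a1. The part of such cells in the Kcnj8 value was not tested.

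Of 8 calcium channel pore genes 2 rose and none fell. Cacna1b, the N-type pore of presynaptic terminals, had 615 and 665 in TKO, against 441, 401 and 479 in WT (0.54, SE 0.15, adjusted p = 0.013). Cacna1h, a low-voltage-activated T-type pore, had 2453 and 3304 in TKO and 1761, 2255 and 2166 in WT (0.47, SE 0.13, adjusted p = 0.016). Without TKO replicate 2, Cacna1h was 0.26 (adjusted p = 0.20) and Cacna1b 0.49 (adjusted p = 0.082), and without WT replicate 1 Cacna1h was also not called (0.076). The T-type pore Cacna1g averaged 6068 ± 594 in TKO (SD, n = 2) and 5646 ± 380.4 in WT (SD, n = 3) and was not called (0.10, adjusted p = 0.36). The L-type pore Cacna1c was not called either (0.22, adjusted p = 0.23). Cacna1g lies on chromosome 11 and Cacna1c on distal chromosome 6. In both regions the median gene stood 0.52 to 0.54 above the WT mean in the TKO NSC libraries. Cacna1s, the skeletal muscle pore, was below the filter of a mean of 10.

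Auxiliary calcium channel subunits were the role group with the largest share of calls, at 78.6% beside 37.7% of all genes. Of the 14 tested 7 fell and 4 rose, beside 19.5% and 18.2% of all genes. The calls of Cacng2, Cacna2d3, Cacna2d4 and Cacnb1 among them were lost when single libraries were left out. Cacng2 and Cacna2d4, both counted as fallen, passed the filter on the mean only through the WT libraries. The 5 Cacng genes that fell are Cacng2, Cacng4, Cacng6, Cacng7 and Cacng8, and Cacng5 was not called (-0.45, adjusted p = 0.64). Apart from Cacng6, these are known mainly as TARPs, which carry AMPA-type glutamate receptors to the membrane. Cacng6, Cacng8 and Cacng7 are neighbours on chromosome 7 and fell by different amounts. Cacng6 had 20.2 and 11.7 in TKO, against 109.5, 123 and 117 in WT (-2.84, SE 0.42, adjusted p = 0.00027). Cacng8 had 1225 and 1421 in TKO and 2702, 2863 and 3043 in WT (-1.12, SE 0.09, adjusted p = 4.3e-06). Cacng7 had 3787 and 3569 in TKO and 4723, 5260.2 and 6384 in WT (-0.56, SE 0.11, adjusted p = 0.0017). Their RefSeq spans lie 7322 bases (Cacng6 to Cacng8) and 25821 bases (Cacng8 to Cacng7) apart. Cacng4 had 2984 and 3575 in TKO and 4456, 4144 and 4233 in WT (-0.39, SE 0.09, adjusted p = 0.0040), and with chromosome 11 centred its difference was -0.93. Without TKO replicate 1 the Cacng4 difference was -0.26, still called. Cacng2, known as stargazin, had 7.35 and 0 in TKO and 40.3, 21.7 and 53.4 in WT (-3.68, SE 0.97, adjusted p = 0.011). Its mean was 3.67 in TKO, below the filter of a mean of 10, and 38.5 in WT. At these low counts the Cacng2 call was lost without TKO replicate 2 (-2.15, adjusted p = 0.058), WT replicate 1 (0.058) or WT replicate 3 (0.060).

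The Cacna2d genes, whose extracellular subunits raise calcium channel density at the surface, split evenly. Cacna2d1, a binding site of gabapentin, had 1969.9 and 2611 in TKO, against 884, 1267 and 1018 in WT (1.12, SE 0.16, adjusted p = 0.00018). Cacna2d3 had 139 and 160.0 in TKO and 83.7, 67.1 and 47.6 in WT (1.20, SE 0.35, adjusted p = 0.019). Cacna2d2, the other gabapentin site, had 208 and 227 in TKO and 440.2, 359 and 543 in WT (-1.02, SE 0.20, adjusted p = 0.0022). Cacna2d4, known from photoreceptors, had 0 and 13.7 in TKO and 16.5, 41.1 and 50.5 in WT (-3.13, SE 1.08, adjusted p = 0.040). Cacna2d4 passed the filter of a mean of 10 only through the WT libraries, with means of 6.83 in TKO and 36.1 in WT. It lies on distal chromosome 6, and with that region centred its difference was -3.66 (adjusted p = 0.025). Of the beta subunits, which are cytosolic, Cacnb3 had 6114 and 6218 in TKO and 3603, 3988 and 3945 in WT (0.68, SE 0.07, adjusted p = 1.9e-05). Cacnb1, on chromosome 11, had 1142 and 1195 in TKO and 878, 920.2 and 980.0 in WT (0.34, SE 0.11, adjusted p = 0.028), and its difference turned to -0.20 with chromosomes centred (adjusted p = 0.20). Cacnb2 and Cacnb4 were not called. The call of Cacna2d3 was lost without TKO replicate 1 (adjusted p = 0.057), TKO replicate 2 (0.11) or WT replicate 3 (0.056). That of Cacna2d4 was lost without TKO replicate 1 (-1.20, adjusted p = 0.30) or any WT replicate (0.063 to 0.14) and with edgeR and DESeq2 (0.11 and 0.079). Cacnb1 was not called without either TKO replicate (0.065 and 0.12), WT replicate 1 (0.087) or WT replicate 2 (0.057).

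Among sodium channel genes, of 7 pores 1 rose and 1 fell, and of 4 beta subunits 1 rose. Scn7a, a pore-family member that senses extracellular sodium and is known from glia and Schwann cells, had 413 and 195 in TKO, against 45.5, 80.1 and 33.0 in WT (2.50, SE 0.44, adjusted p = 0.00089). It is part of a chromosome 2 cluster with Scn9a, Scn1a, Scn2a and Scn3a. Of these, Scn9a had 64.3 and 56.6 in TKO and 2.07, 32.5 and 14.6 in WT and missed the threshold (2.39, adjusted p = 0.055), and the other 3 were not called (0.22 to 0.79). TKO replicate 1 was the higher TKO library for Scn7a, and 13 of the 17 muscle and mesenchyme markers were also higher in it than in TKO replicate 2. Without TKO replicate 1 the Scn7a difference was still called, and the part of muscle cells in it was not tested. Scn8a, the pore of axon initial segments, was not called (-0.08, adjusted p = 0.73).

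HCN channels open on hyperpolarisation and carry the pacemaker current. Hcn3 had 419.7 and 397 in TKO NSC, against 280.0, 272 and 265 in WT NSC (0.58, SE 0.17, adjusted p = 0.019). Its call was lost without TKO replicate 1 (0.098), TKO replicate 2 (0.059) or WT replicate 3 (0.053), and its span overlaps that of Pklr. Hcn2 and Hcn4 were not called.

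Genes that work with these channels gave a share of calls close to that of all genes, but with more falls than rises. Of 42 listed partners, 4 rose and 12 fell in TKO NSC, or 38.1%. Of all genes tested, 18.2% rose and 19.5% fell (37.7% together). The 42 of 49 listed genes summed to 119948 and 127246 in TKO and 146664 to 150377 in WT. Atp1b1, a beta subunit of the sodium-potassium pump, had 930.3 and 1197 in TKO, against 4037, 5026 and 4424 in WT (-2.08, SE 0.12). Ank3, which anchors channels at the axon initial segment, fell by 0.58 on the log2 scale, and Amigo1, a membrane partner of potassium channels, fell by 1.35. Hvcn1, a voltage-gated proton channel, rose (1.41, adjusted p = 0.011), as did Fgf14, an intracellular modulator of sodium channels (1.48, adjusted p = 0.023). Rest, the repressor of many neuronal channel genes, had 4187 and 4117 in TKO and 3216, 3425 and 3239 in WT (0.33, SE 0.07, adjusted p = 0.0028).

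In ESC few members differed between genotypes. Of 80 tested, 2 rose and 5 fell in TKO, or 8.75%, against 7.29% higher and 7.02% lower (14.3% together) of all 17033 genes, and the median log2 difference was -0.0044 beside 0.0057 over all genes. At an unadjusted p under 0.05 there were 13 (16.2%), beside 27.5% of all genes. Kcnj3, a G-protein-gated inward rectifier, had 103 and 82.7 in TKO ESC, against 387, 294 and 280 in WT ESC (-1.77, SE 0.26, adjusted p = 0.00025). Kcnn1, a small-conductance calcium-activated channel, had 73.3 and 71.1 in TKO and 187, 238 and 171 in WT (-1.43, SE 0.29, adjusted p = 0.0031). It lies on chromosome 8, whose median gene stood 0.39 and 0.41 below the WT mean in the TKO ESC libraries but 0.01 and 0.04 below in NSC, and after centring it was -1.03 (adjusted p = 0.028). Those 2 calls held in every alternative. Kcnq3, a pore of the M-current, had 25.1 and 25.0 in TKO and 93.5, 70.4 and 62.4 in WT (-1.53, SE 0.46, adjusted p = 0.033). Cacna1b had 145 and 255 in TKO and 331, 349.9 and 385 in WT (-0.88, SE 0.24, adjusted p = 0.022). Cacnb3 had 2115 and 1761 in TKO and 1456, 1249 and 1126 in WT (0.60, SE 0.13, adjusted p = 0.0055).

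The calls of the last 3 were less steady. That of Kcnq3 was lost without any single library (adjusted p = 0.062 to 0.12). Cacna1b was lost without TKO replicate 1 (-0.48, adjusted p = 0.25), WT replicate 2 (0.056) or WT replicate 3 (0.077), and Cacnb3 without TKO replicate 1 (0.47, adjusted p = 0.088). Over the members, WT ESC replicate 1 stood apart from the other ESC libraries on the first principal component (7.83, beside -0.77 and -1.11 for the other WT and -2.23 and -3.71 for TKO, 48.7% of variance), and without it 2 members rose and 4 fell. Of the 7 members called in ESC and the 44 called in NSC, 3 were shared, which is 42.9% of the first list and 6.82% of the second, beside 57.9% and 21.1% for all genes called. Among them Cacnb3 was higher in TKO in both, and Cacna1b was lower in TKO ESC and higher in TKO NSC.

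The effect of TET loss differed between the cell types for 16 of the 72 members tested in both (22.2%, against 20.7% of 15369 genes), above 0 for 10 (10.9% of all genes) and below 0 for 6 (9.81%), by an interaction term in limma. Those below 0 include Cacng6 (-3.36, SE 0.51, adjusted p = 0.00041), Kcnk2 (-2.85, SE 0.64), Kcng1 (-2.11, SE 0.71) and Cacna2d2 (-1.39, SE 0.35). Each of these was lower in TKO NSC while its ESC value was not called, with 0.53 for Cacng6 and 0.93 for Kcnk2 in ESC. The largest above 0 were Kcnh4 (2.83, SE 0.85), Kcnn1 (1.99, SE 0.39), Kcnj3 (1.93, SE 0.49), Kcnq3 (1.93, SE 0.56) and Kcns3 (1.66, SE 0.49). Kcnn1, Kcnj3 and Kcnq3 fell in TKO ESC and were not called in NSC, Kcns3 rose in TKO NSC and was not called in ESC, and Kcnh4 rose in TKO NSC with 58.7 and 7.69 in TKO ESC beside 71.5, 66.4 and 100.7 in WT ESC. Kcng1, Kcnh4, Kcns3, Kcnq3, Cacna1c and Kcnj3 lost the interaction call when single libraries were left out, whereas 9 members kept it in every alternative. With the line code as a block the Kcng1 interaction had an adjusted p of 0.054. With chromosomes centred, the interaction of Kcnh4 on chromosome 11 was 2.68 and no longer called (adjusted p = 0.057). That of Kcnn1 on chromosome 8 was 1.60 and still called (adjusted p = 0.0087).

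**Figure D3:**
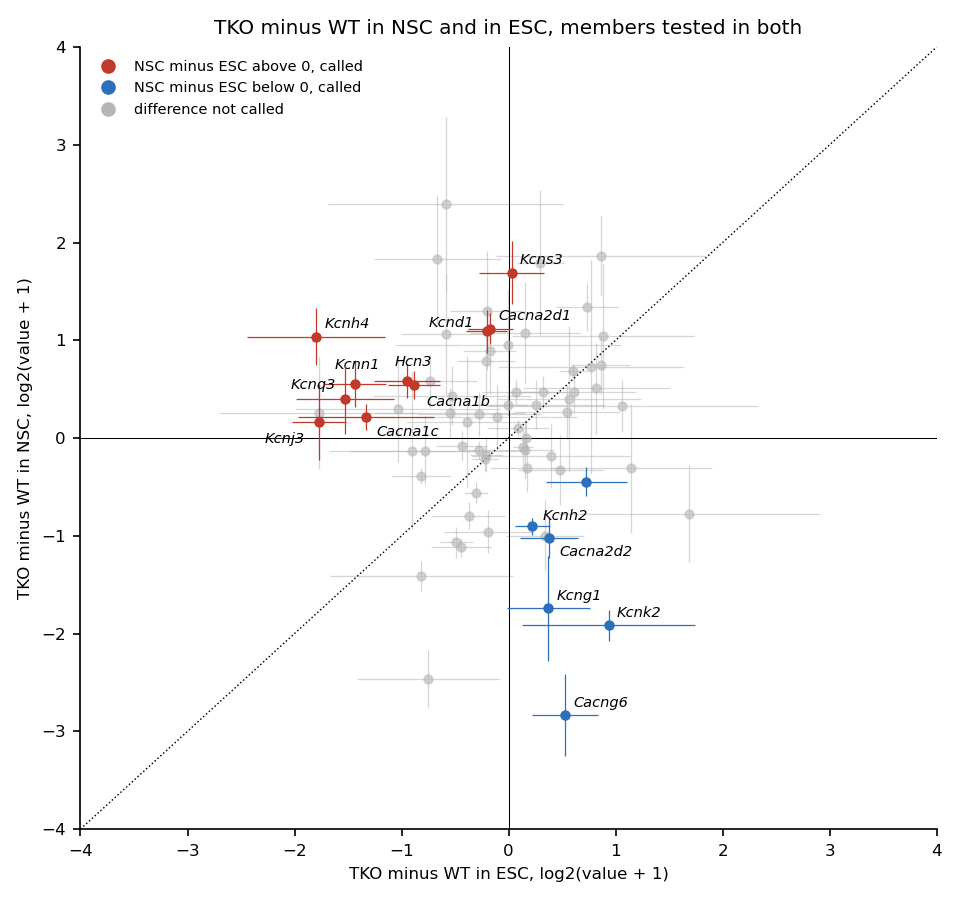
TKO minus WT in ESC (x axis) and in NSC (y axis), both in log2(value + 1), for the 72 members tested in both, with standard errors as bars and the line of equal effect dotted. The 10 red genes lie above the line and the 6 blue ones below it, each with a difference called by the interaction term; Cacng6 and Kcnk2 are the lowest of the blue genes.

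Between the cell types 32 of the 72 members were called in the same direction in both genotypes. Of all 15381 genes 9412 were, which is a larger share. Counting either direction, 33 members (45.8%) were called in both genotypes. Of 15 calcium channel genes tested, 12 were higher in NSC in each genotype, beside 37.8% of all genes in WT and 35.4% in TKO. The 2 sets of 12 differ, with Cacna2d2 higher in WT only and Cacna1b in TKO only. Within WT, 33 of 72 members were higher and 13 lower in NSC than in ESC, or 63.9%, beside 37.8% higher and 37.5% lower (75.3% together) of 15381 genes. Within TKO, 36 were higher and 9 lower, or 62.5%, beside 35.4% higher and 34.8% lower (70.2% together). With libraries scaled to equal totals instead, which moved the median gene by 0.33 in WT and 0.39 in TKO, members higher and lower numbered 35 and 11 in WT and 41 and 8 in TKO, beside 7208 and 4544 of all genes in WT and 7069 and 3859 in TKO. Of the called members 32 went the same way in both genotypes, 26 up and 6 down, which is 69.6% of those called in WT and 71.1% of those called in TKO, beside 81.2% and 87.2% for all genes. Values in the next sentences are reads of both tables scaled together.

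Kcnk2 had 1652, 1297 and 1279 in WT NSC, against 22.4, 21.1 and 7.01 in WT ESC (6.45, SE 0.41, adjusted p = 1.8e-09). In TKO it had 431 and 312 in NSC and 44.1 and 20.0 in ESC (3.58, SE 0.50). The gain was thus present in both genotypes, and the interaction above is the test that it was smaller in TKO. Cacna1c had 1803 and 2247 in TKO NSC and 25.7 and 11.1 in TKO ESC (6.81, SE 0.34). In WT it had 1638, 2090.2 and 1567 in NSC and 47.0, 35.1 and 53.7 in ESC (5.26, SE 0.28). Cacna1g, Cacng4 and Kcnn3 gained 4.69, 4.08 and 4.70 in WT and 4.70, 4.50 and 4.10 in TKO. By role group, 8 of 9 calcium auxiliary and 4 of 6 calcium pore genes were higher in WT NSC and none lower. In TKO, 7 of 9 and 5 of 6 were higher in NSC, and Cacng6 was lower (-3.65).

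Tandem-pore genes moved in both directions between the cell types. Kcnk5, an alkaline-activated leak channel, had 311, 332 and 248 in WT NSC, against 3352, 3523 and 3526 in WT ESC (-3.55, SE 0.12, adjusted p = 1.8e-12). Kcnk6 had 10.6, 5.53 and 8.28 in WT NSC and 271, 273 and 236 in WT ESC (-4.87, SE 0.43). Kcnk1 was lower as well (-1.80), while Kcnk2 and Kcnk12 were higher, and Kcnk10 and Kcnk13 were listed in the NSC table only. Kcnn2, Kcnj3 and Kcnh8 completed the 5 largest falls (-2.95, -2.45 and -2.22). In TKO, Kcnk5 and Kcnk6 were also lower in NSC (-3.79 and -3.40), and Kcnj3 was not called (-0.53, adjusted p = 0.23). Kcnn1 was the member called in opposite directions, lower in WT NSC (-0.78, adjusted p = 0.0096) and higher in TKO NSC (1.20, adjusted p = 0.0024) than in the matching ESC. Kcnn1 lies on chromosome 8, and with chromosomes centred its interaction was 1.60 (SE 0.38, adjusted p = 0.0087), beside 1.99 without centring. The part of the TKO ESC shift in the separate NSC against ESC values of Kcnn1 was not tested.

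**Figure D4:**
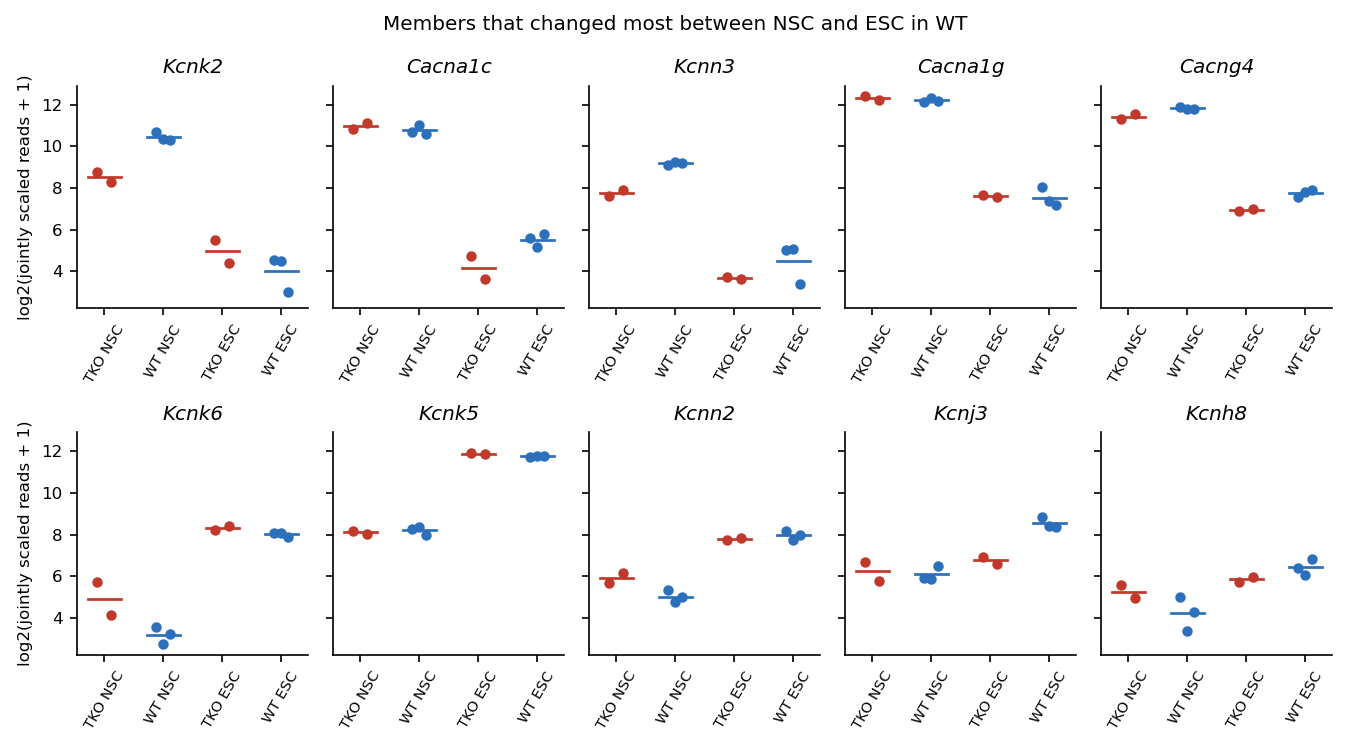
Reads scaled together over both tables, on a log2(value + 1) axis, in each library of TKO and WT NSC and TKO and WT ESC (red TKO, blue WT, bars means of the log2 values) for the 5 members with the largest rise (top) and the 5 with the largest fall (bottom) in WT NSC relative to WT ESC. Kcnk2 in TKO NSC lies below WT NSC but above both ESC groups.

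Some members were listed in 1 table only. The 30 listed in NSC only had mean normalised read counts of 9.8 to 539.8 with a median of 78.1. Of the 29 of these tested, 5 rose and 11 fell in TKO (17.2% and 37.9%), beside 9.05% and 15.7% of the 2375 genes tested that were listed in NSC only. The 8 listed in ESC only, Kcna7, Kcng3, Kcnh6, Kcnj9, Kcnj15, Kcnj16, Kcnn4 and Kcnu1, had means of 13.3 to 121 and none was called. The 5 members with the most reads, a rank that transcript length also sets, were Kcnk5, Cacng7, Kcnk1, Cacnb3 and Cacna1a in ESC and Cacna1g, Cacnb3, Cacng7, Cacng4 and Cacna1h in NSC. In ESC, Kcnk5 averaged 3268 ± 96.4 in TKO (SD, n = 2) and 2974 ± 101 in WT (SD, n = 3).

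Promoter contacts were compared between 1 TKO and 1 WT NSC library, so nothing in them has a replicate check or a test. Captured fragments were taken to be those listed as the first end of a loop in either library. Such a fragment held the start or the end of the RefSeq span for 80 of the 110 members. The strand was not used, so a fragment at the far end of a member may hold the promoter of another gene. Loops of such promoters may be among those counted. For the other 30 members, a fragment captured without a listed loop cannot be told from one not captured. Loops at the 80 members numbered 347 in TKO and 361 in WT, a ratio of 0.96 beside 0.98 for all loops. A loop between 2 members counts at both. Of these 128 were listed in both libraries, which is 36.9% of the TKO and 35.5% of the WT loops (28.7% and 28.2% of all loops). Members fallen in TKO NSC had 59 loops in TKO and 62 in WT, and risen members had 72 in TKO and 67 in WT. At 37 members there were more loops in TKO and at 33 fewer. Kcnn3, which fell, had 13 loops in TKO and 19 in WT with 8 in both. Cacnb1, which rose before chromosomes were centred, had 10 in TKO and 5 in WT with 2 in both. In others the counts ran the other way: Cacna2d4, which fell, had 12 in TKO and 8 in WT, Kcnc1, which fell, had 5 in TKO and 3 in WT, and Scn7a, which rose, had 1 in TKO and 3 in WT. The largest change was at Kcnj14, not called in expression, with 17 in TKO and 27 in WT. Of the 4 fallen tandem-pore genes, Kcnk13 had 4 loops in TKO and 3 in WT, and Kcnk12 had 2 in TKO and 1 in WT. Kcnk2 had 0 in TKO and 1 in WT. No fragment listed as a first end held an end of the Kcnk10 span, so whether Kcnk10 was captured is not known. Only loops with a score of at least 5 are in the files, so a loop absent from 1 library may lie below that score.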

How the data were processed

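RNA was sequenced from 2 TKO and 3 WT lines as ESC and as NSC. Per the submitters' processing notes, the genome build was mm10, and the tools named include STAR 2.7.3a, DESeq2 1.40.2, featureCounts and Trim Galore 0.6.5. The deposited values are a normalised signal, read counts per gene that the authors divided by library size factors, separately for ESC and NSC. Whole reads were recovered for 100% of values within 1e-06, and the strand setting of counting is unknown. Of the low values (up to 20 reads), 75.2 to 82.7% were even. The lines are separate, so n counts lines. ESC and NSC libraries of one number carry the same line code in the file headers, which pairs them if it marks descent, although their deviations from the group means did not correlate (-0.03 to 0.04).

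Genes with a mean of at least 10 were tested on log2(value + 1) with limma 3.58.1 (R 4.3.3, trended empirical Bayes), with Benjamini-Hochberg adjustment over all genes tested and a threshold of 0.05. ESC and NSC were tested within their own tables. For NSC against ESC the recovered reads of the 15381 genes in both tables were scaled together by median of ratios. The interaction used the deposited values. edgeR 4.0.16 and DESeq2 1.42.0 on recovered reads were alternatives. The scripts were tested on simulated data. The members and lists were chosen with earlier results of these data known. Any member could be named. Full values go to called members, and the members with the most reads in each table are also named. The boundary of distal chromosome 6 at 100 Mb was set after seeing the data. RefSeq gave positions for 91.2% of genes. Loops carry the authors' score, at least 5 in both deposited files, and are described without a test. The 4 bisulfite and 20 CUT&Tag libraries were not analysed here, and some members and partner genes are not reported here.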

Additional observations from a re-analysis of the deposited data

Results flagged for a closer look

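For 16 members the TKO effect in NSC differed from that in ESC, which is the difference tested by the interaction term in limma (log2, NSC effect minus ESC effect). Among these it was above 0 for Kcnh4 (2.83), Kcnn1 (1.99), Kcnj3 (1.93), Kcnq3 (1.93), Kcns3 (1.66), Cacna1c (1.55), Hcn3 (1.53), Cacna1b (1.42), Kcnd1 (1.29) and Cacna2d1 (1.29). It was below 0 for Kcnh2 (-1.13), Cacna2d2 (-1.39), Kcng1 (-2.11), Kcnk2 (-2.85) and Cacng6 (-3.36). Hcn3 had 419.7 and 397 in TKO NSC and 280.0, 272 and 265 in WT NSC, but 71.2 and 71.1 in TKO ESC and 145, 132 and 139 in WT ESC. Kcnh2 was 0.22 in ESC and -0.90 in NSC, and Kcnd1 was -0.20 in ESC and 1.09 in NSC.

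The interaction call of Kcng1 was lost without any single WT library (adjusted p = 0.054 to 0.098), either TKO ESC replicate (-2.09 and -2.14) or TKO NSC replicate 1 (-1.19). It was also lost with edgeR (0.080), equal totals (0.054) and chromosomes centred (0.052). Kcnh4 was lost without TKO ESC replicate 2 (1.44), TKO NSC replicate 2 (2.46), WT ESC replicate 3 or any WT NSC replicate (adjusted p = 0.053 to 0.064). It was also lost with edgeR (0.053) and chromosomes centred (0.057). Cacna1c was lost without TKO ESC replicate 2, either TKO NSC replicate, or WT NSC replicate 1 or 3 (0.050 to 0.10). Kcns3 was lost without either TKO ESC replicate, TKO NSC replicate 2, WT ESC replicate 2 or WT NSC replicate 1 (0.056 to 0.15). Kcnq3 was lost without TKO ESC replicate 2, TKO NSC replicate 1, or WT NSC replicate 1 or 3 (0.051 to 0.12), and Kcnj3 without TKO NSC replicate 1 (0.076).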

How the results depend on the processing

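Of the values of named genes under the alternatives, 1091 kept direction and side of the threshold, 144 lost the call and 2 reversed. The reversals were Kcnab3 (-0.065) and Cacnb1 (-0.20) in NSC with each chromosome centred on its median, a setting that removes the chromosome 11 shift. In ESC, members higher in TKO fell to 1 with equal totals, chromosomes centred, the replicate block, or all 10 libraries in one fit, and numbered 1 to 2 without single libraries. Members lower in TKO ESC numbered 2 to 4 without single libraries (2 without WT replicate 2 or 3). In NSC, all 10 libraries in one fit, which tests only the 72 members in both tables, gave 8 higher and 13 lower, against 13 and 15 of the same 72 without it. Leaving out single libraries gave 10 to 17 higher (10 without TKO replicate 2) and 20 to 23 lower. The interaction gave 6 to 10 above 0 (6 without WT NSC replicate 1 or TKO ESC replicate 2) and 4 to 6 below. Loops at a score of at least 10 numbered 35 in TKO and 42 in WT. TKO and WT libraries share only a number (correlations of deviations -0.07 to 0.05). The replicate block (the line code for NSC against ESC and the interaction) gave 1 higher and 4 lower in ESC, 20 and 26 in NSC, 32 and 13 for NSC against ESC in WT, 34 and 9 in TKO, and 10 and 5 for the interaction. Other causes were not tested. With 2 TKO lines, low-count members such as Cacng2, Cacna2d4 and Kcng1 rest on single libraries.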
